A study of Mus with 6 samples.

Results

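Chemokines are small secreted proteins that guide white blood cells along gradients into tissue, and they act through receptors coupled to inhibitory G proteins. They are classed by the spacing of their first conserved cysteines into CC, CXC, C and CX3C ligands, and their receptors are named CCR, CXCR, XCR and CX3CR to match. Atypical receptors bind chemokines without signalling through G proteins and remove them or carry them across cells. In the liver, CXC ligands with a glutamate-leucine-arginine (ELR) motif draw neutrophils, CCL2 draws monocytes, and CXCL9 and CXCL10 draw activated T and NK cells. CXCL12, from endothelium and stellate cells, acts on CXCR4.

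The genes described here were all protein-coding rows of the expression table whose name is Ccl, Cxcl, Ccr or Cxcr followed by a digit, or Cx3cl1, Cx3cr1, Xcl1 or Ackr1 to Ackr4. They number 59 of the 48882 genes in the table, 37 ligands and 22 receptors. Of these, 36 had a value in all 6 libraries, 15 in some and 8 in none. Each library had a value for 39 to 49 of them, with the fewest in wild type replicate 2. A mean of at least 0.5 TPM (transcript abundance as a share of all transcripts, corrected for gene length) over the 6 libraries was required for testing. That left 21 ligands and 11 receptors, 32 genes in all, of which 28 had a value in every library. For 4 of the 32, Ccr1, Cxcl2, Ccl3 and Xcl1, the mean of 1 group lay under that level. Cxcl11 carries the annotation of a transcribed pseudogene in the table, as do 2 Ccl19 copies that of a pseudogene, so these 3 are not counted.

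The data came from liver of mice labelled wild type (3 samples) and Fabp4 knockout (3 samples), the wild type being littermates. Both groups received a Lieber-DeCarli liquid diet containing ethanol for 8 weeks and 1 ethanol binge, a regimen that models alcoholic steatohepatitis, and every sample of both groups was ethanol-fed. Strain, age, sex and the allele, and whether it was removed in all cells, are given in none of the sources used here. The study asked which liver transcripts differ when Fabp4, a fatty acid-binding protein of adipocytes, macrophages and endothelium, is missing in this disease.

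Fabp4 lay at 8.15 to 19.96 TPM in wild type and had no value in the 3 knockout libraries. Hepatocyte markers summed to 127788 to 131248 TPM in wild type and 124074 to 128614 TPM in the knockout. Most of each sum is Alb, at 98737.8 TPM in every library, so the sums are a weak measure of hepatocyte content. Of the 10 markers, 5 had a higher and 4 a lower mean in the knockout. Wild type replicate 2 stood apart on the first principal component of all tested genes (38.1, against -22.3 to 2.497 for the others) while the second component set off knockout replicate 1 (30.8, with the others between -21.8 and 5.92). Sequencing depth cannot be read from TPM and is unknown. The labels do not say that each sample is a separate mouse, and p-values measure only the spread between these samples. In bulk tissue, fewer cells of a type and less RNA per cell cannot be told apart.

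Chemokine RNA in these livers was dominated by 4 ligands. Cxcl12, Ccl9, Cxcl1 and Ccl6 together made up 69.4% of the summed TPM of the 59 genes, averaged over libraries. Cxcl12 alone was 26.9% to 42.8% of the sum, and Cxcl1 ranged from 2.01% in knockout replicate 2 to 43.0% in wild type replicate 2. Below these, 15 genes averaged 1 to 10 TPM, led by Cxcl16, Cxcl10, Ccl5, Cxcl9 and Cxcl13, and 13 averaged under 1 TPM. The sum over all 59 genes was 267 ± 66.5 TPM in wild type and 250 ± 24.8 TPM in the knockout (SD, n = 3 each), so the total did not separate the groups.

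**Figure D1:**
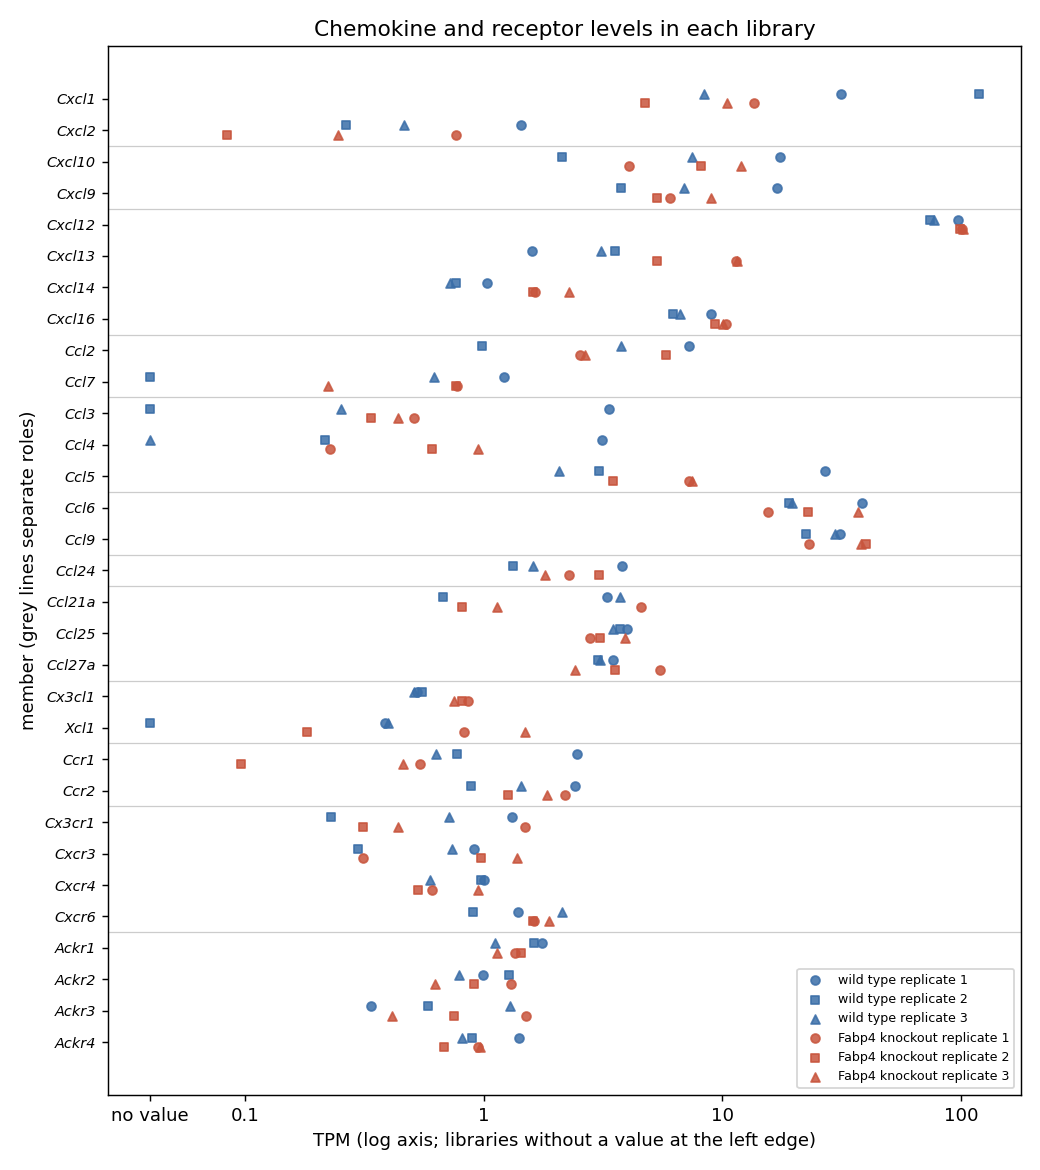
Level of 31 of the 32 tested genes in each library, in TPM on a log axis; colours give the genotype, symbols the replicate, and points at the left edge had no value. Cxcl12 lies between 74.4 and 102 TPM in all libraries, Cxcl1 spreads from 4.73 to 119 TPM, and Cxcl13, Cxcl14, Cxcl16, Cxcl12, Cx3cl1 and Ccr1 have no overlap between colours.

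No chemokine or receptor gene differed between the genotypes after adjustment over all 14155 genes tested. With limma (Benjamini-Hochberg, threshold 0.05) 0 of 32 passed, the smallest adjusted p being 0.522, against 0.00706% of all genes. At an unadjusted p under 0.05 there were 3, Cxcl13, Cxcl14 and Cxcl16, all with higher knockout values and none lower, or 9.38% of 32 against 8.03% of all genes tested (5.12% higher and 2.91% lower). The knockout values lay wholly above the wild type values for 5 genes (15.6%, against 8.94% of all genes) and wholly below for 1, Ccr1 (3.12%, against 4.38%). In either direction this was 6 genes, 18.8% against 13.3%. The median difference of the 32, knockout minus wild type on the log2(TPM + 1) scale, was 0.044, against 0.038 for all genes, with 17 genes above 0 (53.1%, against 57.4%).

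These counts depended on single libraries. Without wild type replicate 1 there were 6 genes at an unadjusted p under 0.05 (8.62% of all genes tested) and the median difference was 0.29. Without wild type replicate 2 there were 2 (5.62% of all genes) and the median was -0.085. After quantile normalization there were 4 (7.82% of all genes), Ccr1 with a lower knockout value being added. Groups did not overlap for 11 genes without wild type replicate 1 and for 10 without wild type replicate 3, where all genes gave 24.6% and 26.3%.

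**Figure D2:**
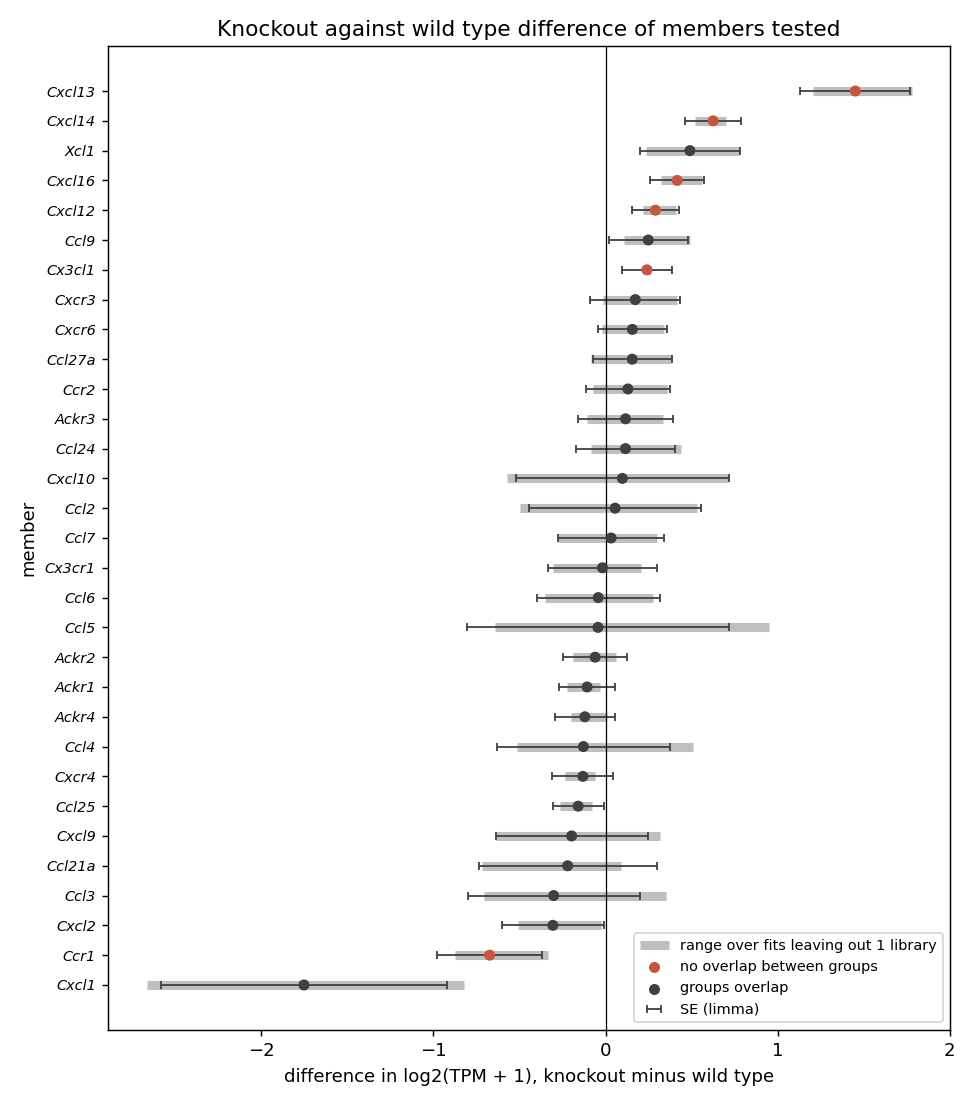
Difference in log2(TPM + 1), knockout minus wild type, for 31 of the 32 tested genes, with the limma standard error (thin bar, n = 3 per group) and the range over the 6 fits that leave out 1 library (grey). Cxcl13 (1.45) and Cxcl1 (-1.75) are the extremes, and for Cxcl13 all fits stay between 1.21 and 1.78.

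Of the 5 CXC ligands without an ELR motif and outside the interferon-induced pair, 4 were tested. All 4 had knockout values wholly above the wild type values, as had 8.94% of all genes tested. They are 4 of the 5 genes so counted above. Cxcl13 attracts B cells through CXCR5 and is known for building lymphoid follicles. In wild type it measured 1.59, 3.54 and 3.10 TPM and in the knockout 11.4, 5.32 and 11.6 TPM, here and below in the order of replicates 1, 2 and 3. Every knockout library lay above every wild type library, and knockout replicate 2 was closest to them. The means were 2.74 ± 1.02 and 9.43 ± 3.56 TPM (SD, n = 3 each), 3.44 times as high in the knockout. The log2 difference, on the log2(TPM + 1) scale throughout, was 1.45 (SE 0.32; unadjusted p 0.00211, adjusted p 0.522, limma). By an exact permutation test (two-sided) p was 0.1, the floor for 3 against 3 libraries. Its unadjusted p stayed under 0.05 in all 6 fits that left out 1 library, and its adjusted p lay between 0.360 and 0.993 over 13 alternatives.

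Cxcl14, a ligand of epithelium whose receptor is not settled, gave 1.03, 0.764 and 0.725 TPM in wild type and 1.63, 1.62 and 2.29 TPM in the knockout. The knockout libraries were again all higher, 2.20 times on the mean, at a low level. Its log2 difference was 0.63 (SE 0.16; limma unadjusted p 0.00553, adjusted p 0.522), and it too kept an unadjusted p under 0.05 in each of the 6 fits without 1 library.

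Cxcl16 is made as a membrane-bound protein by macrophages and endothelium and binds CXCR6 on NKT and T cells. It lay at 8.98, 6.21 and 6.65 TPM in wild type, against 10.4, 9.33 and 10.1 TPM in the knockout. Wild type replicate 1 came close to the lowest knockout library. The log2 difference was 0.42 (SE 0.16; limma unadjusted p 0.0291, adjusted p 0.579), and the unadjusted p stayed under 0.05 in 2 of the 6 fits without 1 library. Cxcl16 overlaps Zmynd15 on the other strand.

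Cxcl12, the most abundant member, lay at 97.0, 74.4 and 76.7 TPM in wild type and 101, 99.3 and 102 TPM in the knockout. The 3 knockout libraries were within 1.15 TPM (SD) of each other, and wild type replicate 1 was just below them. The log2 difference was 0.29 (SE 0.13; limma unadjusted p 0.0646, adjusted p 0.663). Cxcl17, the remaining gene of the group, had a value in knockout replicate 2 alone (0.349 TPM).

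Markers of B cells, stellate cells, sinusoidal endothelium, macrophages, cholangiocytes and dendritic cells also averaged higher in the knockout. Other lists were mixed, with 4 of 6 monocyte markers higher on the mean and 2 lower. T and NK cell markers had 7 of 10 higher and 3 lower. Of all genes tested, 57.4% had a log2 difference above 0. All 6 B and plasma cell markers had a higher mean in the knockout, with sums of 4.47 to 6.03 TPM in wild type and 7.501 to 18.6 TPM in the knockout, the highest in knockout replicate 1. Of the 4 that were tested, Cd79b and Ms4a1 had an unadjusted p under 0.05, both higher, as had 5.12% of all genes tested. Cxcr5, the receptor of CXCL13, stayed under the abundance filter at 0.0382, 0.0736 and 0.112 TPM in wild type and 0.714, 0.208 and 0.106 TPM in the knockout. Its groups overlapped, since knockout replicate 3 lay within the wild type range.

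Stellate cell markers were above wild type on the mean for 8 of 8 genes (summed 246 to 306 TPM, against 289.7 to 366 TPM in the knockout). Sinusoidal endothelial markers were so for 9 of 9 (128 to 177 TPM against 193 to 225 TPM) and Kupffer cell and macrophage markers for 11 of 11 (225 to 624 TPM against 426 to 935 TPM). Cholangiocyte markers, of bile duct epithelium, were so for 6 of 6 (45.5 to 80.7 TPM against 49.0 to 75.7 TPM) and dendritic cell markers for 6 of 6 (2.06 to 3.83 TPM against 3.01 to 4.15 TPM). At an unadjusted p under 0.05 (limma) were 5 of 9 sinusoidal endothelial, 3 of 11 macrophage and 2 of 8 stellate cell markers. All of these were higher in the knockout, as were 5.12% of all genes tested at that p. Of the tested cholangiocyte and dendritic cell markers, none was. Among the 6 lists with higher means throughout, only the B cell and sinusoidal endothelial sums had no overlap between the groups. The part of these cell types in the Cxcl12, Cxcl13, Cxcl14 and Cxcl16 values was not tested.

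The neutrophil-attracting ELR ligands that were tested, Cxcl1 and Cxcl2, which bind CXCR2, pointed the other way, with overlap between the groups. Cxcl1 had a lower mean in the knockout and was widely spread in wild type. Cxcl1 gave 31.6, 119 and 8.35 TPM in wild type, against 13.6, 4.73 and 10.5 TPM in the knockout. Wild type replicates 1 and 2 were above every knockout library, while wild type replicate 3 lay among the knockout libraries. The means of 53.0 ± 58.4 and 9.58 ± 4.48 TPM (SD, n = 3 each) differed by less than the wild type SD. On the log2(TPM + 1) scale this was -1.75 (SE 0.83; limma unadjusted p 0.0691, adjusted p 0.673), and the exact permutation p was 0.3. The fits without 1 library ranged from -2.67, without wild type replicate 3, to -0.83, without wild type replicate 2.

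Cxcl2, next to Cxcl1 on chromosome 5 and with a like role, was far less abundant, at 1.43, 0.264 and 0.463 TPM in wild type and 0.763, 0.0839 and 0.246 TPM in the knockout. The groups overlapped (log2 -0.31, SE 0.29), and the library with the most Cxcl1, wild type replicate 2, was not the one with the most Cxcl2. Cxcl5 stayed under the filter, at 0.709 TPM in wild type replicate 1 and at most 0.18 TPM elsewhere, and had no value in replicate 2 of either group. Cxcl3 and Cxcl15 had no value in any library. The receptor Cxcr2 was also under the filter, at 0.323 ± 0.147 TPM in wild type and 0.356 ± 0.0868 TPM in the knockout (SD, n = 3 each). Cxcr1 lay at 0.0788 to 0.105 TPM in wild type, at 0.0251 TPM in knockout replicate 1 and without a value in the other knockout libraries.

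Neutrophil markers ran in the same direction as Cxcl1. All 5 tested of 12 were lower on the mean in the knockout, and Lcn2, Retnlg, S100a9 and S100a8 had an unadjusted p under 0.05 (2.91% of all genes tested did so with a lower knockout value). That p stayed under 0.05 in all 6 fits without 1 library for Lcn2, in 3 for Retnlg and in 2 each for S100a9 and S100a8. Most of the summed level is Lcn2, which hepatocytes also make, and with it the sums were 97.7 to 664 TPM in wild type and 35.2 to 65.8 TPM in the knockout. Without Lcn2 the other 11 markers summed to 41.7, 50.2 and 21.6 TPM in wild type and 20.7, 20.2 and 16.1 TPM in the knockout. Defining markers were near 0, with Ly6g and Mpo measured in wild type replicate 2 alone (0.104 and 0.0378 TPM) and Camp in no library. Ngp, another such marker, went the other way, with values in knockout replicates 1 and 2 alone (0.0830 and 0.157 TPM). The part of neutrophils in the Cxcl1 values was not tested.

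**Figure D3:**
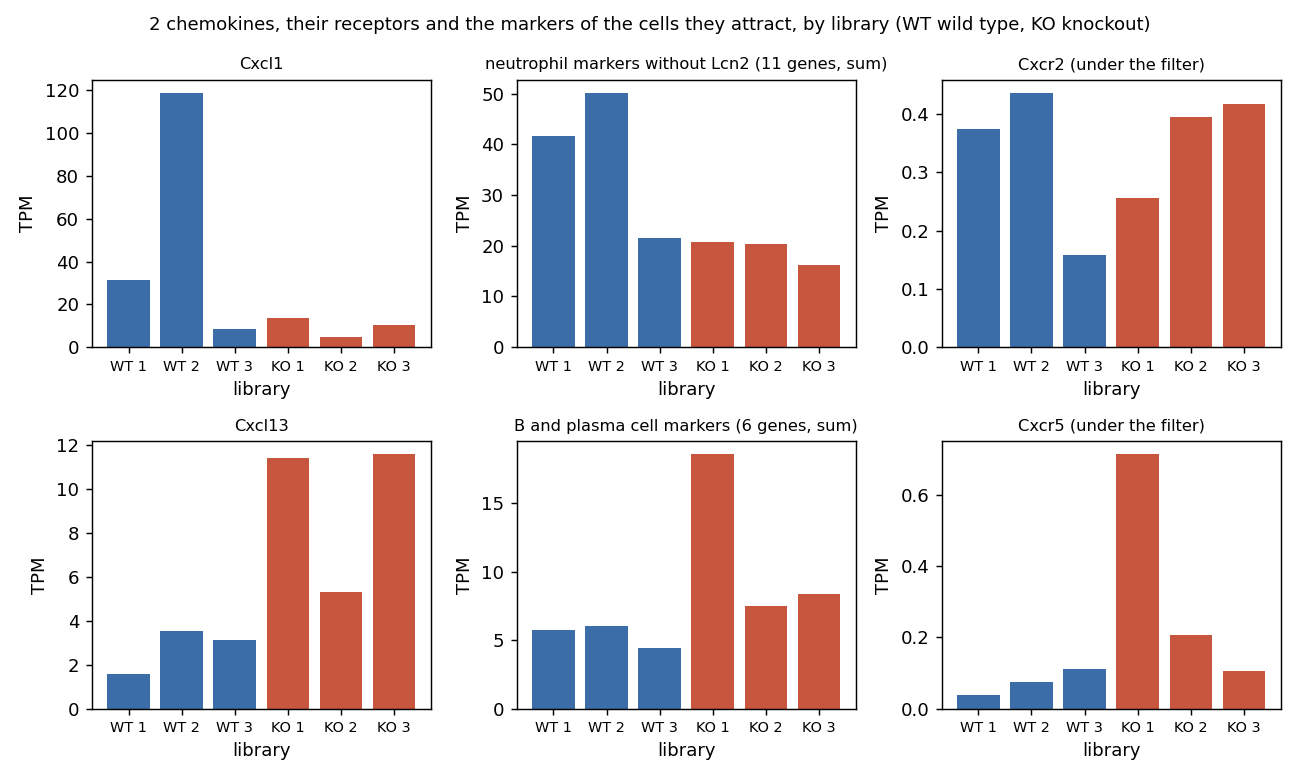
TPM in each library (WT wild type, KO knockout) of Cxcl1, the summed neutrophil markers without Lcn2 and Cxcr2 (top), and of Cxcl13, the summed B and plasma cell markers and Cxcr5 (bottom). Cxcl1 is highest in wild type replicate 2 (119 TPM), and Cxcl13 is above 5 TPM in the 3 knockout libraries, while Cxcr2 and Cxcr5 stay under 1 TPM throughout.

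The interferon-induced ligands of CXCR3 did not separate the genotypes. Cxcl9 lay at 16.9, 3.745 and 6.92 TPM in wild type and 6.03, 5.35 and 9.0 TPM in the knockout (log2 -0.20, SE 0.44). Cxcl10 lay at 17.5, 2.13 and 7.47 TPM and at 4.07, 8.17 and 11.9 TPM (log2 0.098, SE 0.62). For both genes wild type replicate 1 was the highest library of all and wild type replicate 2 the lowest, so the knockout values fell inside the wild type range. Cxcr3 itself, the receptor on activated T and NK cells, averaged 0.649 ± 0.318 and 0.890 ± 0.540 TPM (SD, n = 3 each; log2 0.17, SE 0.26).

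Among the CC ligands of monocytes, macrophages and T cells, wild type replicate 1 was the highest library for all 5 tested genes, and wild type replicate 2 the lowest for 3 of them, Ccl2, Ccl7 and Ccl3. Ccl2, the main ligand of CCR2, lay at 7.28, 0.989 and 3.75 TPM in wild type and 2.54, 5.795 and 2.65 TPM in the knockout (log2 0.056, SE 0.50). Ccl7, which shares that receptor, had no value in wild type replicate 2 and reached 1.21 TPM in wild type replicate 1, with 0.774, 0.766 and 0.223 TPM in the knockout (log2 0.032, SE 0.31). Again the wild type libraries bracketed the knockout. Ccl8 and Ccl12 stayed under the filter, at most 0.726 TPM.

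Ccl5, made by T cells, NK cells and macrophages, was at 26.8 TPM in wild type replicate 1 and at 3.05 and 2.06 TPM in replicates 2 and 3, against 7.27, 3.48 and 7.499 TPM in the knockout. One wild type library thus lay above and the other two below all knockout libraries (log2 -0.044, SE 0.76). Without wild type replicate 1 the difference was 0.95. Ccl4 in wild type had 3.12 TPM, 0.217 TPM and, in replicate 3, no value, against 0.226, 0.606 and 0.949 TPM in the knockout (log2 -0.13, SE 0.50). Ccl3 was alike, at 3.35 TPM in wild type replicate 1 and 0 to 0.512 TPM elsewhere (log2 -0.30, SE 0.50). Ccl3 and Ccl4 overlap on opposite strands, and with strandedness not stated their reads may be shared.

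The myeloid ligands Ccl6 and Ccl9, which bind CCR1 and are made steadily by mouse macrophages and other myeloid cells, were abundant and varied less. Ccl9 lay at 31.2, 22.3 and 29.6 TPM in wild type and 23.0, 40.04 and 38.0 TPM in the knockout (log2 0.25, SE 0.23). Ccl6 lay at 38.4, 18.98 and 19.6 TPM and at 15.5, 22.7 and 36.9 TPM (log2 -0.042, SE 0.36). Neither separated the groups. Ccr1 had the most negative difference of the tested receptors. It gave 2.45, 0.771 and 0.633 TPM in wild type and 0.540, 0.0964 and 0.458 TPM in the knockout. The knockout libraries lay wholly below, with wild type replicate 1 far above the rest and wild type replicate 3 just above knockout replicate 1. The log2 difference was -0.67 (SE 0.31; limma unadjusted p 0.0602, adjusted p 0.657), and without wild type replicate 1 it was -0.33.

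Among the remaining CC ligands, Ccl24, which draws eosinophils through CCR3, lay at 3.80, 1.33 and 1.61 TPM in wild type and 2.27, 3.03 and 1.81 TPM in the knockout (log2 0.12, SE 0.29). Ccl25, a gut-homing ligand of CCR9, was even across libraries, at 4.0, 3.72 and 3.47 TPM and at 2.80, 3.06 and 3.91 TPM (log2 -0.16, SE 0.15). Ccl27a, best known from skin, lay at 3.47, 3.01 and 3.08 TPM and at 5.48, 3.56 and 2.41 TPM (log2 0.15, SE 0.23). All of these overlapped between the groups. Ccl21a, a ligand of CCR7 on lymphatic endothelium, averaged 2.56 ± 1.64 and 2.17 ± 2.07 TPM (SD, n = 3 each; log2 -0.22, SE 0.52). Near-identical copies of Ccl21a and Ccl27a, listed as Ccl21b and Ccl27b without any value, may share reads with them.

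Cx3cl1, the membrane-tethered ligand fractalkine, stood at 0.527, 0.552 and 0.513 TPM in wild type and 0.862, 0.809 and 0.753 TPM in the knockout. The groups did not overlap and each was tight, at 0.530 ± 0.0200 and 0.808 ± 0.0545 TPM (SD, n = 3 each), 1.52 times as high in the knockout. At this low level limma, which draws each gene's spread towards that of genes of like abundance, gave a log2 difference of 0.24 (SE 0.14; unadjusted p 0.134, adjusted p 0.722). The exact permutation p was 0.1. Its receptor Cx3cr1, on monocytes and macrophages, averaged 0.753 ± 0.545 and 0.747 ± 0.647 TPM (SD, n = 3 each; log2 -0.018, SE 0.32). Xcl1, from NK and T cells, was at 0.387, 0 (no value) and 0.396 TPM in wild type and 0.826, 0.181 and 1.49 TPM in the knockout, with overlap (log2 0.49, SE 0.29).

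The receptors of several of these ligands did not separate the genotypes. Ccr2, on monocytes, lay at 2.42, 0.883 and 1.43 TPM in wild type and 2.19, 1.26 and 1.85 TPM in the knockout (log2 0.13, SE 0.25). Wild type replicate 2 was the lowest library and wild type replicate 1 the highest. Cxcr6, the CXCL16 receptor, lay at 1.39, 0.901 and 2.12 TPM and at 1.62, 1.60 and 1.87 TPM (log2 0.16, SE 0.20), and overlaps Fyco1 on the other strand. Cxcr4, the CXCL12 receptor, lay at 1.01, 0.970 and 0.593 TPM and at 0.607, 0.529 and 0.949 TPM (log2 -0.13, SE 0.18). Cxcr6 and Cxcr4 overlapped between the groups, unlike their ligands.

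The atypical receptors were low, and Ackr3 was uneven across libraries. Ackr1, the Duffy receptor of red cells and venules, lay at 1.76, 1.62 and 1.12 TPM in wild type and 1.36, 1.44 and 1.14 TPM in the knockout (log2 -0.11, SE 0.16). Ackr2, a scavenger of inflammatory CC ligands, lay at 0.994, 1.28 and 0.786 TPM and at 1.30, 0.913 and 0.624 TPM (log2 -0.060, SE 0.19). The groups overlapped for both. Ackr3, which takes up CXCL12, differed by 0.12 (SE 0.28) on the log2 scale and Ackr4, which takes up CCR7 ligands, by -0.12 (SE 0.17), also with overlap.

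Of the 27 genes that were not tested, 19 had a value in at least 1 library, none above 1.01 TPM. They include Ccl19 and its receptor Ccr7, at 0.545 and 0.605 TPM on the mean in the knockout and 0.320 and 0.184 TPM in wild type, with overlapping libraries. Ccl17, a ligand of CCR4, had no value in any wild type library and 0.0347 to 0.0746 TPM in the knockout. Ccl28 lay at 0.0185 to 0.0380 TPM in wild type and 0.0529 to 0.0686 TPM in the knockout. At these levels no comparison was drawn. Ccl11, Ccl22, Ccr1l1, Ccr3, Ccr4, Ccr6, Ccr9 and Ccr10 were measured at most at 0.387 TPM. Besides Cxcl3 and Cxcl15, the genes with no value anywhere were Ccl1, Ccl20, Ccl21b, Ccl26, Ccl27b and Ccr8.

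For many of the genes, wild type replicate 1 was the highest or wild type replicate 2 the lowest of the 6 libraries. Wild type replicate 1 was the highest of the 6 libraries for 16 of the 32 tested genes (50.0%, against 15.97% of all genes tested). They were Ccl2, Ccl3, Ccl4, Ccl5, Ccl6, Ccl7, Ccl24, Ccl25, Cxcl2, Cxcl9, Cxcl10, Ccr1, Ccr2, Cxcr4, Ackr1 and Ackr4. Wild type replicate 2 was the lowest for 16 (50.0%, against 24.5% of all genes) and the highest for Cxcl1 alone. Both held for only 7 of the 32 genes, Ccl2, Ccl3, Ccl7, Ccl24, Cxcl9, Cxcl10 and Ccr2, for which wild type spanned the whole range. The share of all genes for which both held was not computed. The median SD within groups was 0.43 on the log2(TPM + 1) scale for the 32 genes and 0.21 for all genes tested, which differ in abundance from them.

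**Figure D4:**
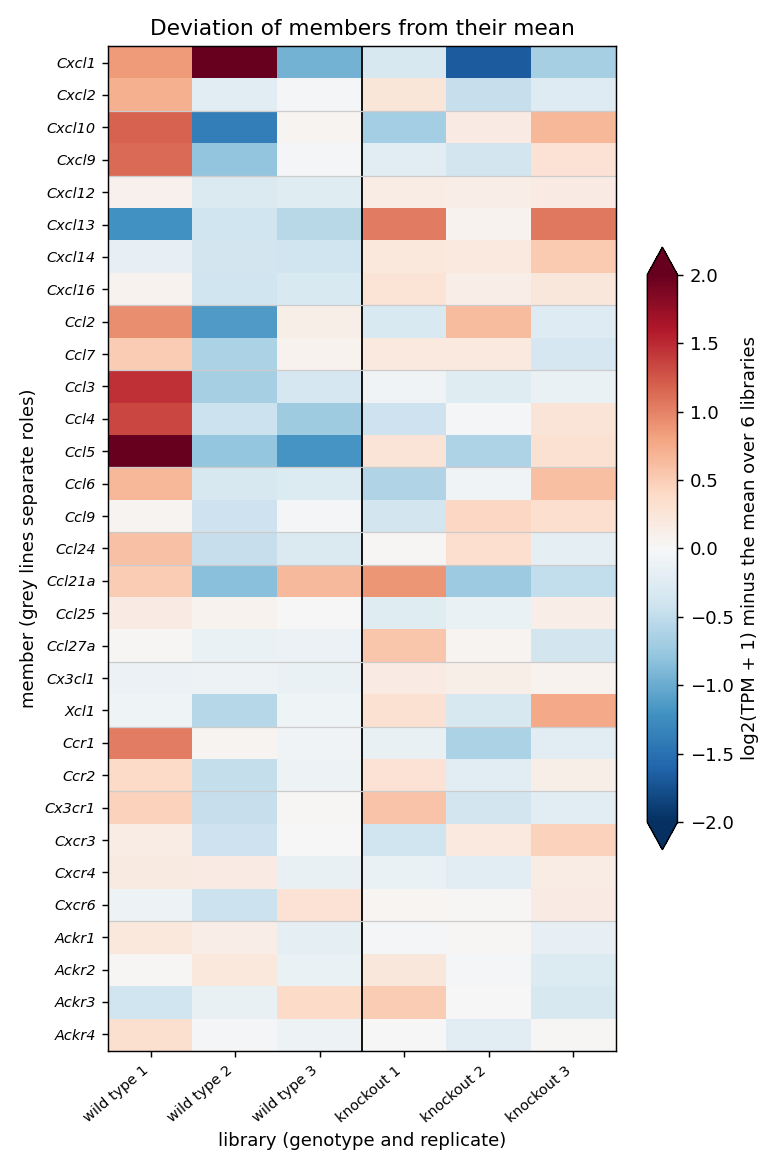
Deviation of log2(TPM + 1) from its mean over the 6 libraries, for 31 of the 32 tested genes (rows, by role) in each library (columns), red above and blue below the mean, with the colour scale ending at 2 and -2. Wild type replicate 1 is the highest library for 16 genes, and Cxcl12, Cxcl13, Cxcl14 and Cxcl16 are higher in all 3 knockout libraries than in any wild type library.

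Many chemokine genes lie in arrays that arose by duplication, and the signs of the log2 differences of neighbours in an array were not all alike. On mm10 chromosome 5 (90759298 to 90905938), Cxcl5, Cxcl3, Cxcl15, Cxcl1 and Cxcl2 summed to 33.7, 119 and 8.997 TPM in wild type and 14.4, 4.81 and 10.8 TPM in the knockout, nearly all of it Cxcl1. Ppbp and Pf4, chemokine relatives with other names, lie in the same stretch and are not in these sums. Ppbp averaged 0.184 TPM in wild type and 0.393 TPM in the knockout, and Pf4 1.89 and 2.42 TPM, both with overlap. On chromosome 11 (83525778 to 83664683), Ccl5, Ccl9, Ccl6, Ccl3 and Ccl4 were all tested, 1 with a higher and 4 with a lower log2 value in the knockout. Each of the 4 lower ones changed sign in some fit without 1 library, so this split shows no direction. Their sums were 103, 44.6 and 51.5 TPM in wild type and 46.6, 67.2 and 83.7 TPM in the knockout. The other array on chromosome 11 (82035577 to 82179812), with Ccl2 and Ccl7, summed to 9.97, 0.989 and 5.21 TPM and to 4.08, 6.56 and 3.79 TPM. In both arrays on chromosome 11, wild type replicate 2 was the lowest and wild type replicate 1 the highest library. Of the genes with no overlap, Cxcl13 (chromosome 5, 95956939 to 95961068), Cxcl14 (chromosome 13, 56288643 to 56296794), Cxcl16 (chromosome 11, 70454232 to 70459984) and Cxcl12 (chromosome 6, 117168535 to 117181368) lie outside any array of 3 or more members. Cx3cl1 (chromosome 8, 94772180 to 94782427) lies between Ccl22 and Ccl17, and Ccr1 (chromosome 9, 123962126 to 123968692) lies in an array of receptor genes.

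Genes that carry the chemokine signal onward, or act with it, leaned higher in the knockout without passing the test. Of 59 such genes 50 were tested, 0 passed over all genes and 42 had a log2 difference above 0 (84.0%, against 57.4% of all genes), with a median of 0.25. At an unadjusted p under 0.05 there were 3, all higher, namely Plcb3, Gnb2 and Itgam, or 6.0% of 50 against 8.03% of all genes tested. Without wild type replicate 1 there were 19 (18 higher), 38.0% against 8.62% of all genes. Without knockout replicate 2 there were 7, 14.0% against 6.70%, and without both wild type replicate 2 and knockout replicate 1 there was 1, 2.0% against 6.93%.

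Receptor signalling genes, from G protein subunits to the kinases and exchange factors of cell movement, had 18 of 19 tested above 0. Gnb2, a G protein beta subunit, averaged 43.4 ± 1.93 and 57.4 ± 6.21 TPM (SD, n = 3 each; log2 0.39, SE 0.12). Plcb3, a phospholipase C that G proteins activate, averaged 5.89 ± 0.402 and 8.46 ± 0.706 TPM (SD, n = 3 each; log2 0.46, SE 0.13). For both, all knockout libraries lay above all wild type libraries. Kinases, arrestins and RGS proteins that switch receptors off had 7 of 8 above 0, with Arrb2 at 0.34 (SE 0.16) and Rgs2 at 0.53 (SE 0.28).

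Leukocyte adhesion genes had 9 of 11 above 0. Itgam, the CD11b integrin chain of neutrophils and macrophages, averaged 0.682 ± 0.260 and 1.31 ± 0.217 TPM (SD, n = 3 each; log2 0.47, SE 0.18). Chemokine-processing genes and other attractants had 7 of 10 above 0, with Mif, a cytokine that binds CXCR2 and CXCR4, at 0.28 (SE 0.15) and Fpr2, a formyl peptide receptor of neutrophils and macrophages, at 0.32 (SE 0.25). Of the chemokine relatives with other names, the platelet chemokine Pf4 differed by 0.37 (SE 0.41) and the chemerin-binding receptor Ccrl2 by -0.14 (SE 0.21). The macrophage and endothelial marker sums given above leaned the same way as these lists, and their part in them was not tested.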

How the data were processed

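RNA of 6 liver samples was sequenced on a HiSeq system, per the labels' protocols. FastQC, Trimmomatic and the build mm10 are named in the submitters' processing notes, but versions, aligner, quantifier, annotation and strandedness are given in none of the sources used here. TPM is the unit in the column names, per the file headers. What the authors deposited is its log2, with negative values and antilogarithms summing to 983800 to 1018118. Their sorted values nearly coincide across libraries (median 1.07, maximum 16.6 in each), as quantile normalization leaves them, so a shift of all genes cannot be seen. Both points were read from the values.

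Values were turned back to TPM, blanks taken as 0, and log2(TPM + 1) was tested for the 14155 genes with a mean of at least 0.5 TPM. The fixed design assumed TPM, and the back-transformation meets it. The pseudocount of 1 understates changes of low genes. Group was the only term in limma 3.58.1 (R 4.3.3; lmFit, eBayes with trend, two-sided; 4 residual and 3.65 prior degrees of freedom), with Benjamini-Hochberg adjustment over all genes. SE is limma's moderated standard error. The exact permutation test used all 20 splits. The test was tested on simulated data.

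The members, the lists and the alternatives were chosen with earlier results of these data known. All members past the filter are named except 1, which entered the fits and counts and is not reported here. Every library's values are given for members at an unadjusted p under 0.05, those with no overlap, the 2 most abundant of each role and the ELR ligands. In each pathway list those at an unadjusted p under 0.05 are named or, where none, the 2 with the smallest p. All 59 pathway and 84 marker genes were matched, Grk2 and Grk3 through the older symbols Adrbk1 and Adrbk2 of the GRCm38.p6 RefSeq gene table. Of the tested members, 10 overlap another gene on the opposite strand. Alternatives changed the pseudocount, filter, scaling, replicate block and libraries.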

Additional observations from a re-analysis of the deposited data

How the results depend on the processing

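No chemokine or receptor gene and no gene of the pathway lists passed limma's Benjamini-Hochberg threshold under any of the 13 alternatives, the last of which was chosen after seeing the data; the smallest adjusted p of a member ranged from 0.352 to 0.993. The number of members at an unadjusted p under 0.05 (limma) was 5 of 51 without a filter (5.89% of all genes). It was 2 to 6 when 1 library was left out (4.82% to 9.27% of all genes). After quantile normalization it was 4 (7.82% of all genes), Ccr1 with a lower knockout value joining the 3 higher ones. Groups with no overlap numbered 3 of 10 with a filter at 5 TPM (12.7% of all genes), 6 to 11 of 32 without 1 library (19.6% to 27.4%) and 11 of 32, or 34.4%, without wild type replicate 2 and knockout replicate 1 together (37.7%), where fewer libraries make overlap rarer. The median difference was -0.085 to 0.29 without 1 library. With the replicate number as a block in limma, 4 members had an unadjusted p under 0.05 (5.76% of all genes) and 0 passed. Deviations of same-numbered libraries from their group means correlated at -0.26, -0.27 and -0.049. With 3 libraries per group these values cannot show whether equal numbers mark a shared litter or batch, and the labels do not say.

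Of 32 tested members, 14 kept the sign of their log2 difference throughout, among them Cxcl13, Cxcl14, Cxcl16, Cxcl12, Cx3cl1, Cxcl1, Cxcl2 and Ccr1, and 18 changed it; the cause was not tested. Leaving out 1 library gave ranges of -0.19 to 0.063 for Ackr2, -0.11 to 0.34 for Ackr3, -0.20 to 0.0067 for Ackr4, -0.50 to 0.53 for Ccl2, -0.72 to 0.090 for Ccl21a, -0.086 to 0.44 for Ccl24, -0.083 to 0.38 for Ccl27a, -0.71 to 0.35 for Ccl3, -0.52 to 0.51 for Ccl4, -0.64 to 0.95 for Ccl5, -0.35 to 0.28 for Ccl6, -0.27 to 0.30 for Ccl7, -0.075 to 0.36 for Ccr2, -0.30 to 0.21 for Cx3cr1, -0.57 to 0.71 for Cxcl10, -0.64 to 0.32 for Cxcl9, -0.016 to 0.41 for Cxcr3 and -0.019 to 0.34 for Cxcr6. Without wild type replicate 2 and knockout replicate 1 the reversed values were -0.15 for Ackr3, -0.33 for Ccl2, -0.072 for Ccl24, -0.11 for Ccl27a, 0.073 for Ccl6, -0.37 for Ccl7, -0.18 for Ccr2 and -0.20 for Cxcl10. A pseudocount of 0.1 gave 0.082 for Ccl3, 0.41 for Ccl4 and 0.043 for Ccl5, and quantile normalization gave -0.00098 for Ccl2. No depth is known, so members near or under 0.5 TPM cannot be given a counting error.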
